A study of Mus musculus with 12 samples.

Results

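Among 25965 entries in the count table, 8 transcripts were followed because their levels shifted with the number of Q331K alleles of Tardbp: Magee1, Pnmal1, Wwp2, Spock2, Aox1, 2900097C17Rik, Cwc25 and Saal1. They were chosen by name from values of all 12 libraries, so their differences between genotypes are given as descriptions, and counts of calls among them support nothing. The knock-in mice were C57BL/6, 5 months old, and +/+ (wild type), Q331K/+ (heterozygous) or Q331K/Q331K (homozygous). Lumbar lower motor neurons were taken by laser capture, with 4 libraries of polyadenylated RNA per genotype. No label ties a library to a mouse, so the spread given here is between libraries and may in part be technical. In bulk captures, fewer cells of a type and less RNA per cell cannot be told apart.

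Tardbp encodes TDP-43, a nuclear RNA-binding protein that binds UG-rich stretches in introns and 3′ untranslated regions and regulates splicing, RNA stability and its own level. Q331K is an amino acid change in its C-terminal region found in amyotrophic lateral sclerosis, a disease in which motor neurons die. The 8 transcripts have no single shared function in textbook knowledge. They come from a ubiquitin ligase family, a MAGE protein, a PNMA protein, a matrix proteoglycan, an oxidase, a splicing factor, a serum amyloid A-like protein and a noncoding RNA.

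Library totals ran from 60886825 to 83504446 counts. Levels are CPM, counts scaled to a common library size by edgeR after TMM normalization. Mean Tardbp RNA was 73.7 ± 7.68 CPM for +/+, 73.0 ± 5.48 for Q331K/+ and 75.6 ± 2.17 for Q331K/Q331K (SD, n = 4 each). Nefh, the most abundant of the motor neuron markers, was at 4440 ± 897 CPM in wild type (SD, n = 4). Heterozygote replicate 1 and homozygote replicate 1 stood apart in cell content. Their summed level of 15 motor neuron markers was 14076 and 14326 CPM against 5547 to 10084 CPM in the other 10 libraries. Their sum of 7 excitatory interneuron markers was 119 and 136 CPM against 356 to 651 CPM, and of 10 inhibitory interneuron markers 376 and 470 CPM against 779 to 1431 CPM. Of the inhibitory markers, 2 were at 0 in the former and 4 in the latter, where Slc6a5 was among them, against 0 or 1 in the others.

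TDP-43 favours UG repeats, written TG below, so the longest TG run of each spliced transcript is shown first, in capitals within its flanks. Sequences are from GENCODE release M21 on GRCm38, 5′ to 3′ on the transcribed strand. The first 4 transcripts were lower with Q331K and the other 3 were higher. Cwc25 is not shown because its transcript holds no TGTGTG, and the Saal1 stretch spans an exon junction.
Spock2: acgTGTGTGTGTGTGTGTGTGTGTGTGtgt
Wwp2: tcacaggTGTGTGTGTGTGTGTGcacgcgt
Magee1: aggagtgggTGTGTGTGTGTGttggggggg
Pnmal1: tcctttgtgtaTGTGTGTGttcatctatgc
2900097C17Rik: cgtgtgtgccTGTGTGTGTGtatttgagtg
Aox1: ctggaacataccTGTGTGagtcaaacatga
Saal1: ttaagagaaatcTGTGTGggaattttaggg

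Where runs tied in length, the first along the transcript was taken, and the regions of the others were not recorded. In all 4 lower transcripts the run shown lay in the 3′ untranslated region. How often this holds over all transcripts was not computed, so nothing is read from it. Introns were not searched. Coordinates are those of the printed stretch of 30 bases, flanks included. The Spock2 run is 42 bases long, and only part of it fits the stretch at chr10:60133053-60133082 on the plus strand. The Wwp2 run is 16 bases long, within chr8:107558425-107558454, and the Magee1 run 12, within chrX:105123423-105123452. The Pnmal1 run of 8 bases, within chr7:16963887-16963916, lies beyond the end of the counted entry. Of the higher transcripts, Aox1 has a longest run of 6 bases, in coding sequence. Saal1 has 6 runs of 6 bases, and the first of them lies in coding sequence. 2900097C17Rik has a run of 10 in a noncoding exon, within chr2:156391917-156391946 on the minus strand. The hexamer TGTGTG, counted with overlaps on the transcribed strand, occurs 45 times in Spock2. Only 0.402% of 1244 transcripts within 10% of its length hold as many or more. Each such share counts the transcript itself. Pnmal1 holds 12, Wwp2 8 and Magee1 6, as many as or more than which were found in 6.71%, 11.9% and 12.8% of transcripts of like length. 2900097C17Rik holds 15 (6.08% hold as many), Saal1 6 (22.2%), Aox1 1 and Cwc25 0, while 78.6% of transcripts as long as Cwc25 hold at least 1. Of the 15 in 2900097C17Rik, 0 lie in the 339 bases that were counted. These are letter matches and not binding sites.

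The entry named 2900097C17Rik is a small part of a longer noncoding RNA. It covers chr2:156392491-156392829 on the minus strand, 339 bases that match the span of a short GENCODE transcript. RefSeq on GRCm38.p6 places them inside Norad, a gene of 4917 bases from 156388063 to 156392979, starting 150 bases from its 5′ end. Norad is known as a cytoplasmic RNA that binds Pumilio proteins and helps keep chromosomes stable. The counts therefore reflect 6.89% of the Norad gene and say nothing of the rest. RefSeq also lists a longer noncoding gene, Gm14170, over the same bases, and reads from either cannot be told apart here. The symbol is also a RefSeq synonym of Bscl2, which lies on chromosome 19 and is not the counted locus.

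Pumilio proteins bind a short element, searched here as TGTANATA on the transcribed strand only. The GENCODE transcript of 4915 bases holds 11 matches. As many or more occur in 0.143% of 1397 transcripts of like length, itself included. None of the 11 lies in the counted 339 bases. The match nearest to the counted part and the match after it are shown with the motif in capitals.
Norad, transcript position 651: agaagtcctgTGTATATAatatgaaaaa
Norad, transcript position 1147: gtaaacatgcTGTAAATAcctttttgtt

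In wild type, levels per kilobase of counted exon set the transcripts far apart. Magee1 was at 73.3 ± 2.86 CPM per kilobase and Spock2 at 49.2 ± 1.26 (SD, n = 4 each). Pnmal1 (13.6 ± 4.11) and 2900097C17Rik (9.24 ± 4.28) followed and were within their spread of each other. Wwp2 was at 5.22 ± 0.216, Cwc25 at 2.72 ± 0.726, Saal1 at 0.762 ± 0.0588 and Aox1 at 0.699 ± 0.0738 CPM per kilobase, the last pair again within their spread. Exon lengths include every GENCODE transcript of the gene, retained introns among them, and so understate the level of genes with many transcripts. In homozygotes 2900097C17Rik was at 27.3 and Pnmal1 at 5.89 CPM per kilobase, and Aox1 at 2.26 was above Saal1 at 1.505.

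**Figure D1:**
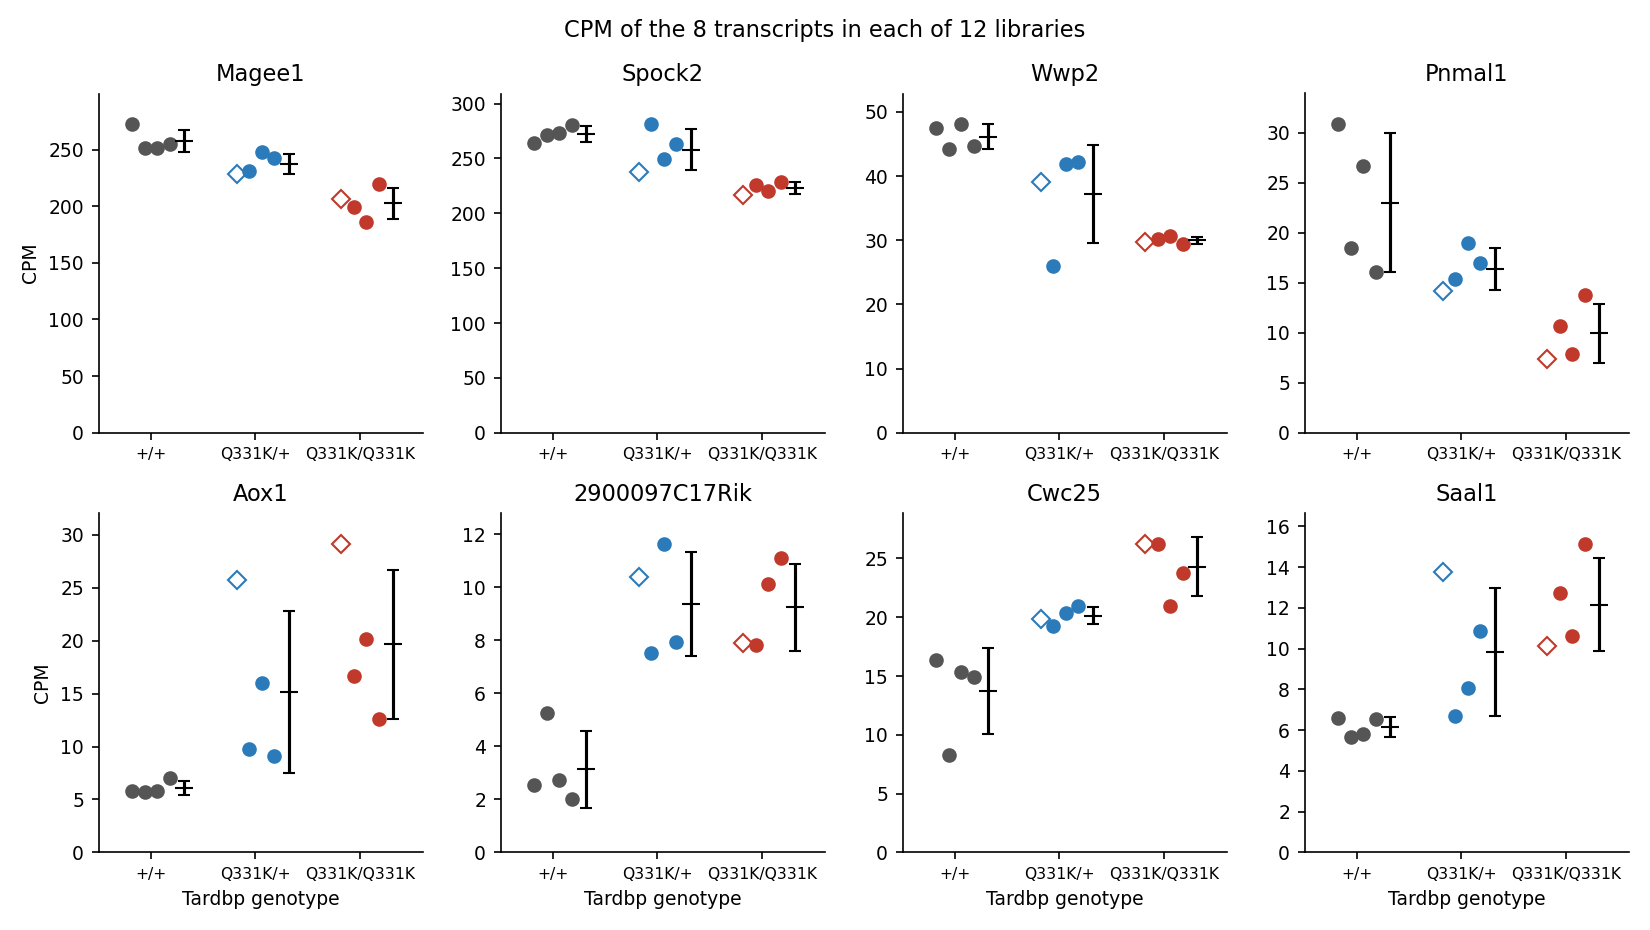
CPM of each transcript (vertical axis, from 0) in the 12 libraries by Tardbp genotype. Each point is a library, open diamonds are heterozygote replicate 1 and homozygote replicate 1, and bars are the mean and SD of 4 libraries. In all 8 panels the wild type and homozygote points do not overlap, and in Magee1 and Cwc25 the heterozygote points lie between both.

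No homozygote library overlapped a wild type library for any of the 8 transcripts, 4 being higher and 4 lower in homozygotes. Over all 16338 genes tested, 3.41% had no such overlap (1.29% higher, 2.12% lower). Heterozygotes and wild type did not overlap for 6 of the 8 (4 higher, 2 lower), against 3.24% of all genes (1.48% higher, 1.76% lower). Homozygotes and heterozygotes did not overlap for 4 (1 higher, 3 lower), against 2.03% (1.03% higher, 0.998% lower). Magee1 and Cwc25 alone among the 8 had all 3 genotypes apart in allele order, which held for 0.0245% of all genes. The choice of the transcripts fixed these counts, and nothing is read from them. The same 8, 6, 4 and 2 transcripts stayed apart without heterozygote replicate 1 and homozygote replicate 1, a setting chosen after seeing the data. The shares of all genes were then 5.70% (2.48% higher, 3.23% lower), 6.59% (3.24% and 3.35%), 10.1% (4.93% and 5.19%) and 0.0979%.

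Over all genes, edgeR called 1 of 16338 (0.00612%), Spop, with the allele number as a slope, and 1 (0.00612%) in homozygotes against wild type. It called 0 (0%) in heterozygotes against wild type and 0 (0%) in homozygotes against heterozygotes, where 670 and 486 genes had an unadjusted p below 0.05. The slope had 763 such genes, where 816.9 would be expected if no gene differed. The 8 were chosen on these contrasts, so their calls are listed with nothing read from them. In edgeR and limma-voom 0 of the 8 were called in any of the 4 comparisons. DESeq2 called 12 genes by the slope, with Magee1, Pnmal1, Wwp2 and Aox1 among them. It called 13 in homozygotes against wild type, with Magee1, Pnmal1, Spock2, Aox1 and 2900097C17Rik among them. In heterozygotes against wild type it called 13, with 2900097C17Rik among them, and in homozygotes against heterozygotes 8, with 0 of the 8 transcripts.

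Magee1, a single-exon gene on the X chromosome (chrX:105120396-105123909, plus strand), encodes a MAGE protein known to bind dystrobrevin. It was at 272, 251, 251 and 255 CPM in wild type replicates 1 to 4, at 228, 231, 248 and 242 CPM in heterozygotes and at 206, 199, 186 and 219 CPM in homozygotes. Every wild type library was above every heterozygote library, and every heterozygote library above every homozygote library. The log2 difference from wild type was -0.12 (95% interval -0.27 to 0.04) in heterozygotes and -0.34 (-0.50 to -0.19) in homozygotes, the latter a 1.27-fold lower level. It was also among the tightest of the 8, with CVs of 3.90%, 3.80% and 6.76% over 0, 1 and 2 mutant alleles. Xist had 0 counts in all 12 libraries and the Y-linked genes Ddx3y and Eif2s3y had counts in all 12, values that bear on an X-linked gene.

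Spock2, testican-2, is a secreted proteoglycan of the extracellular matrix, encoded at chr10:60106219-60135198 on the plus strand. Its level over replicates 1 to 4 was 264, 271, 273 and 281 CPM for +/+, 237, 281, 250 and 263 CPM for Q331K/+ and 217, 226, 220 and 229 CPM for Q331K/Q331K. Homozygotes were below all other libraries, whereas heterozygote replicate 2 was as high as the highest wild type library. Homozygotes differed from wild type by -0.29 on the log2 scale (-0.44 to -0.14) and heterozygotes by -0.08 (-0.23 to 0.07). The 1.22-fold difference in homozygotes was the smallest among the 8 transcripts and rested on 13810 to 23612 counts per library.

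Wwp2 is an E3 ubiquitin ligase of the NEDD4 family and the host gene of miR-140, at chr8:107436398-107558594 on the plus strand. It was at 47.5, 44.3, 48.1 and 44.7 CPM in wild type and at 29.7, 30.2, 30.6 and 29.4 CPM in homozygotes, whose SD was 0.534 CPM. Heterozygotes were at 39.0, 26.0, 41.9 and 42.1 CPM. In 3 heterozygote libraries the level was between the other genotypes, while replicate 2 was below every homozygote library. The log2 difference was -0.31 (-0.62 to -0.00) in heterozygotes and -0.62 (-0.93 to -0.31) in homozygotes. The entry is overlapped on the other strand by the pseudogene Rps26-ps1, whose counts came to 1.58% of those of Wwp2.

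Pnmal1 belongs to the PNMA family, named for autoantigens of paraneoplastic neurological disease and derived from retrotransposon Gag genes. Its entry, chr7:16959795-16962319, ends before the GENCODE gene end at 16964607, so 1.69 kilobases of exon were counted of a transcript of 4090 bases. It was at 30.8, 18.4, 26.7 and 16.1 CPM in wild type, at 14.2, 15.4, 19.0 and 16.9 CPM in heterozygotes and at 7.40, 10.7, 7.88 and 13.8 CPM in homozygotes. Wild type libraries were widely spread, and replicates 2 and 4 both lay within the heterozygote range. The homozygote level was 2.32-fold lower (log2 difference -1.21, -1.76 to -0.66), the largest difference among the lower transcripts, and heterozygotes were at -0.49 (-1.03 to 0.05).

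Aox1, a molybdenum-containing oxidase of aldehydes and many drugs, had the largest difference of the 8. It lies at chr1:58029931-58106413 on the plus strand and was at 5.77, 5.73, 5.76 and 7.04 CPM in wild type. Heterozygotes were at 25.7, 9.81, 16.02 and 9.12 CPM and homozygotes at 29.2, 16.7, 20.2 and 12.6 CPM. The wild type libraries were all lowest, and within either mutant genotype replicate 1 was highest. The log2 difference was 1.32 (0.58 to 2.06) in heterozygotes and 1.69 (0.95 to 2.44) in homozygotes, a 3.23-fold higher level. Without replicate 1, heterozygotes averaged 11.6 ± 3.80 CPM and homozygotes 16.5 ± 3.80 CPM (SD, n = 3 each), against 6.07 ± 0.642 CPM in wild type (SD, n = 4).

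2900097C17Rik, the counted part of Norad, was at 2.54, 5.26, 2.72 and 2.01 CPM in wild type, at 10.4, 7.52, 11.6 and 7.95 CPM in heterozygotes and at 7.90, 7.83, 10.1 and 11.1 CPM in homozygotes. The mutant genotypes covered the same range, both above wild type. The differences from wild type were 1.58 (0.91 to 2.25) in heterozygotes and 1.56 (0.89 to 2.23) in homozygotes on the log2 scale, and -0.02 (-0.67 to 0.64) between the mutants. Its level was thus not graded over 1 and 2 alleles in these libraries, and the interval between the mutants still allows a difference of either sign.

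Cwc25 is a splicing factor that joins the spliceosome for the first catalytic step, encoded at chr11:97745481-97766556 on the minus strand. It was at 16.4, 8.32, 15.3 and 14.9 CPM in wild type, at 19.9, 19.3, 20.4 and 20.9 CPM in heterozygotes and at 26.2, 26.2, 20.98 and 23.8 CPM in homozygotes. The genotypes were apart in allele order, though heterozygote replicate 4 at 20.95 CPM all but met homozygote replicate 3. Wild type replicate 2 was lowest, and without it the change per allele was 0.32 in place of 0.41 on the log2 scale.

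Saal1, serum amyloid A-like 1, is a protein with armadillo-like repeats encoded at chr7:46686108-46710680 on the minus strand. It was at 6.57, 5.68, 5.82 and 6.56 CPM in wild type, at 13.8, 6.70, 8.05 and 10.9 CPM in heterozygotes and at 10.1, 12.7, 10.6 and 15.1 CPM in homozygotes. Heterozygote replicate 2 was just above the highest wild type library, and heterozygote replicate 1 was above 3 of the 4 homozygote libraries. The homozygote level was 1.97-fold that of wild type (log2 difference 0.98, 0.46 to 1.503), and heterozygotes were at 0.68 (0.16 to 1.20).

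**Figure D2:**
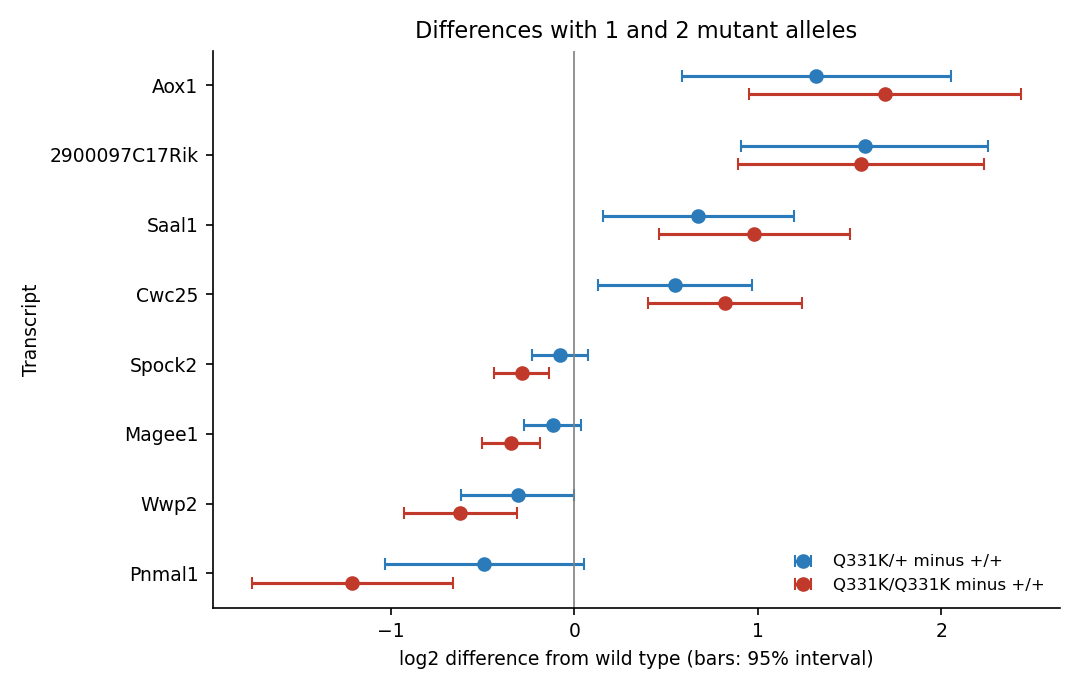
Log2 difference from wild type (horizontal axis) of each transcript in heterozygotes (blue) and homozygotes (red), with 95% intervals of the edgeR fit. In the 4 higher transcripts the heterozygote point lies nearer to the homozygote point than to 0. In Spock2, Magee1 and Pnmal1 it lies nearer to 0, and in Wwp2 about midway.

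The heterozygotes were not equally far along the scale in all 8 transcripts. As a share of the log2 difference between homozygotes and wild type, the heterozygote difference was 27.0% for Spock2, 34.0% for Magee1, 40.5% for Pnmal1 and 49.7% for Wwp2. It was 66.9% for Cwc25, 68.9% for Saal1, 77.9% for Aox1 and 101% for 2900097C17Rik. The 4 lower transcripts all had smaller shares than the 4 higher ones. The heterozygote intervals above are wide, and the order of the shares was not tested.

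**Figure D3:**
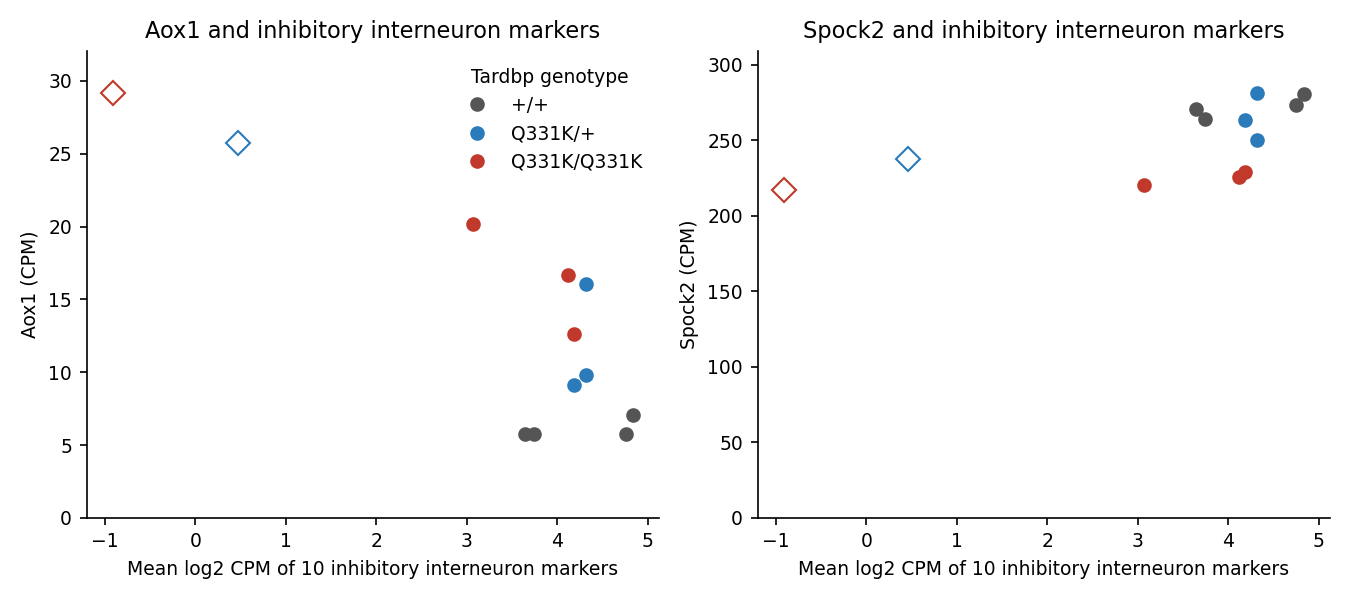
Aox1 (left) and Spock2 (right) in CPM (vertical axes, from 0) against the mean log2 CPM of 10 inhibitory interneuron markers (horizontal axis), a point per library and a colour per genotype. Open diamonds are heterozygote replicate 1 and homozygote replicate 1, at the lowest marker levels, where Aox1 is at 25.7 and 29.2 CPM and Spock2 at 237 and 217 CPM.

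Cell content moved with Aox1 and Spock2 within genotypes. After the genotype mean was removed from each library, the correlation over 12 libraries between Aox1 and the inhibitory interneuron markers was -0.80, with the excitatory interneuron markers -0.85 and with the motor neuron markers 0.71. Spock2 had the opposite signs, at 0.66, 0.76 and -0.75. The points share depth and scaling. Without heterozygote replicate 1 and homozygote replicate 1 the values over 10 libraries were -0.12, -0.31 and 0.16 for Aox1 and 0.45, 0.56 and -0.52 for Spock2. The marker sums also differed in mean between genotypes. Over 0, 1 and 2 mutant alleles the excitatory interneuron sum was 536 ± 75.3, 462 ± 236 and 360 ± 166 CPM (SD, n = 4 each). The inhibitory sum was 1205 ± 209, 939 ± 383 and 889 ± 382 CPM, the astrocyte sum 1243 ± 262, 930 ± 237 and 928 ± 194 CPM, and the motor neuron sum 7323 ± 2087, 8835 ± 3551 and 9345 ± 3324 CPM. Aldoc alone was 1075, 818 and 786 CPM of the astrocyte sum. The ranges of the genotypes overlapped in these 4 lists. In the oligodendrocyte list heterozygotes (959 to 1209 CPM) and homozygotes (1455 to 1630 CPM) did not overlap, both within the wild type range (951 to 2853 CPM). The part of the marker lists in the genotype differences of the 8 transcripts was not tested. For the other 6 transcripts the within-genotype correlations with the interneuron and motor neuron lists over 12 libraries ran from -0.35 to 0.47. Without heterozygote replicate 1 and homozygote replicate 1 they ran from -0.49 to 0.53. Both ends were with the inhibitory interneuron markers, for 2900097C17Rik and Cwc25. With the other cell lists over 12 libraries, Cwc25 was beyond 0.5 in size with the endothelial (0.63) and microglia (0.58) markers. The only others beyond 0.5 were Pnmal1 with the endothelial markers (0.52) and 2900097C17Rik with the astrocyte markers (-0.51). Without the same pair of libraries these were 0.62, 0.57, 0.68 and -0.57. The endothelial sum was 129 and 134 CPM in that pair, against 68.4 to 112 CPM in the others. Egfl7 alone was 118 and 110 CPM of it, while Ly6c1 was at 4.13 and 3.86 CPM, against a wild type mean of 10.4 CPM. The mean log2 CPM of the list, used for the correlations, was -0.28 and 1.16 in the pair, within the range of -0.67 to 2.13 of the others.

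The 8 transcripts did not deviate together within genotypes. Of 28 pairs, correlations of library deviations over 12 libraries ran from -0.80 to 0.66 with a median of 0.07. Magee1 and Pnmal1 had the highest (0.66), and 2900097C17Rik and Cwc25, both higher in the mutants, the lowest (-0.80). Wild type replicate 2 was far from the other wild type libraries in both. There 2900097C17Rik was at 5.26 CPM, against 2.01 to 2.72 CPM, and Cwc25 at 8.32 CPM, against 14.9 to 16.4 CPM. How far the lowest value rests on that library was not tested. Spock2 was opposite to Aox1 (-0.77) and to Wwp2 (-0.67).

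Genes with the most similar profile were taken by Pearson r of log2 CPM over all 12 libraries, genotype differences included. Magee1 and Pnmal1 were each other's closest (0.91), followed by Hsd17b4 (0.91) and Tmem41b (0.89) for Magee1 and by Adnp2 (0.91) and Tubgcp6 (0.91) for Pnmal1. Spock2 was closest to 1700086D15Rik (0.92), Lrrc9 (0.90) and the synaptic vesicle gene Syp (0.89). Wwp2 was closest to Nr2e3 (0.88), 2010107G12Rik (0.87) and Gm2895 (0.86). Aox1 was closest to Rnf150 (0.94), Rps27l (0.92) and Gm20503 (0.92), and 2900097C17Rik to Ptplad2 (0.88), Plekhg4 (0.87) and again Rnf150 (0.845). Cwc25 was closest to Ints9 (0.95), Trpm5 (0.89) and Lct (0.88), and Saal1 to Tram1 (0.92), Acox2 (0.88) and Gpr34 (0.88). All 3 named for Wwp2, and also 1700086D15Rik, Lrrc9, Trpm5, Acox2 and Gpr34, were below 1 CPM on average.

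Relatives and partners of the 8 transcripts were tested with the allele slope, since the choice of the 8 did not use them. Of 104 symbols in 8 lists, 88 were tested, and edgeR called 0 higher and 0 lower, against 0.00612% of all genes. Unadjusted p-values below 0.05 were found for 2 of the 88, Sntg1 and Ppil1. The median change per allele was -0.00 on the log2 scale, as for all genes (-0.00), with 40 of 88 above 0.

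**Figure D4:**
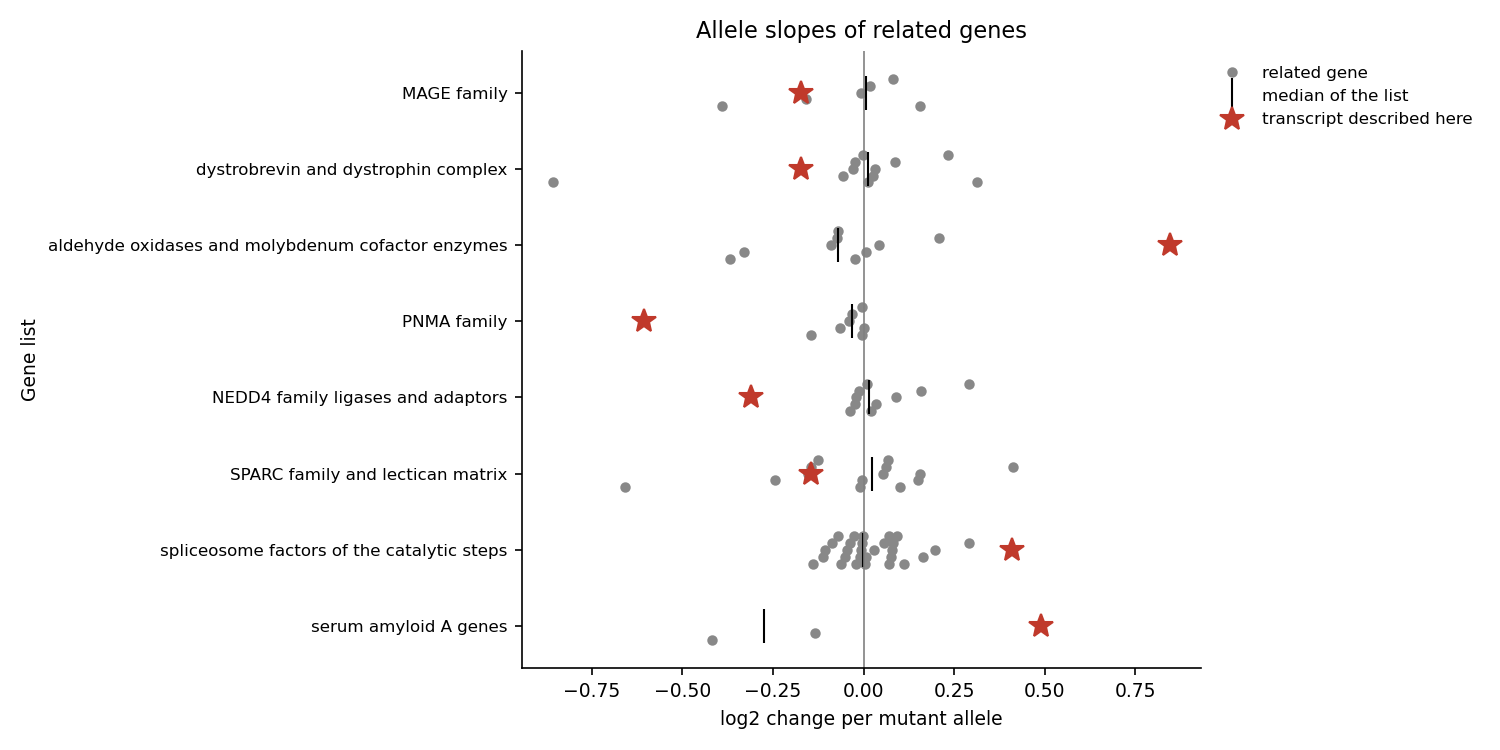
Log2 change per mutant allele (horizontal axis) of 88 related genes in 8 lists (grey points, black bar for the list's median) and of the transcript each list goes with (red star). The medians of the 7 lists other than serum amyloid A lie between -0.07 and 0.02.

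The MAGE family gave 3 higher and 3 lower estimates of 6 tested. Maged1, an adaptor of neurotrophin signalling, had means of 821 ± 61.1, 811 ± 108 and 814 ± 99.3 CPM over 0, 1 and 2 mutant alleles (SD, n = 4 each). The smallest p-values in the family were those of Ndn (0.16 per allele on the log2 scale), Mageh1 (-0.16) and Ndnl2 (0.08). Of the 11 genes of the dystrobrevin and dystrophin complex, the syntrophin Sntg1 was at 0.31 per allele (SE 0.09, edgeR adjusted p = 0.978), and Sntb2 at 0.23. Dtna, a dystrobrevin, was at -0.03 (95% interval -0.16 to 0.10).

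Of the PNMA genes in the list, 0 passed the edgeR slope test. Pnmal2, 10967 bases away and also the nearest tested gene on the left, had means of 119 ± 13.1, 92.8 ± 30.5 and 97.4 ± 26.9 CPM over 0, 1 and 2 mutant alleles (SD, n = 4 each), with -0.14 per allele on the log2 scale (SE 0.11, edgeR adjusted p = 0.978). Zcchc18 and Zcchc12 were at -0.03 and -0.04. Of 7 tested PNMA genes, 6 had estimates below 0, all between -0.14 and 0.00, against -0.61 for Pnmal1.

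NEDD4 family ligases and adaptors gave 6 estimates above and 4 below 0, where Wwp2 was at -0.31. Its closest relative Wwp1 had means of 67.1 ± 11.5, 71.5 ± 10.1 and 68.0 ± 4.55 CPM over 0, 1 and 2 mutant alleles (SD, n = 4 each), a change per allele of 0.01 (95% interval -0.14 to 0.15). Hecw1 (0.09), Smurf2 (0.29) and Nedd4l (0.16) had the smallest p-values. None of the 10 in this list had an unadjusted p below 0.05.

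Matrix genes related to Spock2 went both ways, 7 above and 7 below 0 of 14. Spock1 and Spock3, the other testicans, were at 0.15 (-0.09 to 0.39) and 0.07 (-0.16 to 0.29) per allele. The smallest p-values were those of Sparcl1 (-0.14), Smoc1 (-0.66) and Tnr (0.41), each with edgeR adjusted p = 0.978. Sparcl1 is also made by astrocytes. Their summed markers were 579 and 653 CPM in heterozygote replicate 1 and homozygote replicate 1, against 935 to 1586 CPM in the others. Aldoc alone was 467 and 511 CPM of these sums. The mean log2 CPM of the list was 3.36 and 3.48 in the pair, within the range of 3.23 to 5.10 of the others. The part of astrocyte RNA in the Sparcl1 level was not tested.

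Enzymes around Aox1 showed no call. Aox4, an aldehyde oxidase gene 103984 bases to its right and the nearest tested gene there, had means of 6.57 ± 4.98, 5.73 ± 4.03 and 5.79 ± 3.73 CPM over 0, 1 and 2 mutant alleles (SD, n = 4 each), with -0.09 per allele (-0.76 to 0.58). The cofactor genes Mocs1 (-0.33) and Gphn (-0.07) and the related oxidase Xdh (-0.37) had the smallest p-values of 9 tested.

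Spliceosome factors of the catalytic steps numbered 29, with 14 estimates above and 15 below 0. Ppil1, a cyclophilin of the active spliceosome, was at -0.11 per allele (SE 0.04, edgeR adjusted p = 0.978), Isy1 at 0.20 and Cwc22 at 0.29, and the core protein Prpf8 at -0.09 (-0.24 to 0.06). Against these, Cwc25 was at 0.41. The serum amyloid A genes Saa1 and Saa2 averaged 0.201 and 0.0731 CPM in wild type, too low to compare with Saal1.

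Genes next to the 8 transcripts on the chromosome did not pass the edgeR slope test. The nearest tested genes on either side numbered 16, and their changes per allele ran from -0.42 to 0.33. Besides Pnmal2 and Aox4 these were 2610029G23Rik and 5330434G04Rik for Magee1, Ppp5c for Pnmal1, Nob1 and Psmd7 for Wwp2, Ascc1 and Chst3 for Spock2, Sgol2 for Aox1, 4921517L17Rik and Epb4.1l1 for 2900097C17Rik, Pip4k2b and Rpl23 for Cwc25, and Sergef and Saa1 for Saal1. Sergef, at -0.37 (SE 0.17), had the smallest p-value of the 16, with an edgeR adjusted p of 0.978. Pip4k2b lies 777 bases from Cwc25 on the same strand and had means of 8.08 ± 0.701, 9.74 ± 1.39 and 9.47 ± 0.851 CPM over 0, 1 and 2 mutant alleles (SD, n = 4 each).

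Promoters were found in RefSeq for 5 of the 8, as 250 bases before to 50 after the annotated start on GRCm38.p6. Those of Aox1, the highest fold of all, and of Wwp2, the steadiest level in homozygotes, are shown, with matches on either strand in capitals. The first motif searched was the GC box, GGGCGG. The next was the E-box, with the letters CACGTG. The last was the TATA box, with the letters TATAAA. Aox1 lies at chr1:58029719-58030018 and Wwp2 at chr8:107436120-107436419, both on the plus strand.
Aox1: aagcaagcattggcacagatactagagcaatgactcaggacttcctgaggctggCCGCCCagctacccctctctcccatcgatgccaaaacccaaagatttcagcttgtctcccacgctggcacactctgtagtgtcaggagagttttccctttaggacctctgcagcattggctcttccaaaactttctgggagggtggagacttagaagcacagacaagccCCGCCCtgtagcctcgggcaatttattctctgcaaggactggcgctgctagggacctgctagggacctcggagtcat
Wwp2: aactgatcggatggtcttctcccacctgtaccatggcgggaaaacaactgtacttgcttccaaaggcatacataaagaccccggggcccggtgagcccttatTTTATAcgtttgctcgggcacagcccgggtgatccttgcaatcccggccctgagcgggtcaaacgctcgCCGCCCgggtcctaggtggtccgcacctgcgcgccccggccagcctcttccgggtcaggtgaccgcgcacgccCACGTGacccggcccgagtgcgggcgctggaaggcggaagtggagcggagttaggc
GGGCGG, the core of the box bound by Sp1, was in 4 of the 5 promoters (Aox1, Wwp2, Cwc25 and Magee1, not Spock2) and in 35.7% of 32851 RefSeq promoters. CACGTG and TATAAA were in Wwp2 alone of the 5, and in 7.15% and 13.6% of all. Both higher and lower transcripts were among those with GGGCGG. The 32851 promoters were not limited to genes tested here and are no matched background, so nothing is read from these shares.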

How the data were processed

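Per the labels' protocols, cDNA of 12 laser-captured samples was made with a SMART-seq ultra low input kit and libraries with a Nextera XT kit. Neither kit keeps strand or adds molecular identifiers, so counts are not independent molecules. The deposited table holds raw counts, made by the authors after Trim Galore 0.4.3 and HISAT2 2.0.5 on GRCm38, per the submitters' processing notes. For the counting program and its annotation, the sources used here give no name.

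Libraries were grouped by genotype from their titles. Genes were kept by filterByExpr in edgeR 4.0.16 (R 4.3.3), which left 16338 of 25965 entries, and scaled by TMM (factors 0.94 to 1.03). Quasi-likelihood fits over all 12 libraries used the allele number as a slope or the 3 genotypes as groups, two-sided, with Benjamini-Hochberg adjustment over all genes and a threshold of 0.05. Correlations used log2 CPM with a prior count of 2. Counts of same-genotype libraries differed beyond sampling noise in all 18 pairs (chi-square over its degrees of freedom at least 62.8).

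The slope fit was tested on simulated counts (15854 genes): it recovered 5.97% of genes changed 1.5-fold, 28.4% changed 2-fold and 59.1% changed 4-fold in homozygotes, with 0 false calls. The 8 transcripts and the lists of relatives, markers and neighbours were chosen with earlier results of these data known. Named genes were the 8, their nearest tested neighbours and overlapping entries, the 3 most similar profiles of each, and the 3 smallest p-values of each list of relatives. One gene under this rule is not reported here. Maged1, Dtna, Wwp1, Spock1, Spock3 and Prpf8 fall outside it and were chosen after their values were seen. Cell type markers named singly were among the most abundant of their list. The alternatives were DESeq2 1.42.0, limma-voom (limma 3.58.1), size factors, filters, a replicate block, genes detected as a covariate, and libraries left out. Replicate numbers were not taken as pairs.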

Additional observations from a re-analysis of the deposited data

Results flagged for a closer look

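Of 24 groups of 4 libraries examined for the 8 transcripts, 1 held a library far from the others by Dixon's ratio, where chance gives about 1 in 20. Aox1 was at 7.04 CPM in wild type replicate 4, and the next wild type library was at 5.77 CPM. The gap is small beside the mutant libraries, which lay between 9.12 and 29.2 CPM.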

How the results depend on the processing

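The change per allele of all 8 transcripts kept its sign, and moved by less than 1 SD between libraries, in all 20 alternative settings. That SD is of log2 CPM within genotypes and exceeds the SE of each slope, at 0.50 against 0.19 for Aox1. It is thus a loose limit. Leaving out a heterozygote library, at the middle allele number, can hardly move a slope. The 8 were also chosen for this slope, so nothing is read from the kept signs. It ran from -0.19 to -0.15 for Magee1, -0.69 to -0.49 for Pnmal1, -0.32 to -0.30 for Wwp2, -0.15 to -0.13 for Spock2, 0.64 to 0.95 for Aox1, 0.65 to 0.89 for 2900097C17Rik, 0.32 to 0.45 for Cwc25 and 0.44 to 0.54 for Saal1 on the log2 scale. The lowest Aox1 value, 0.64 against 0.85 in the main fit, came with genes detected as a covariate. The allele slope, with 1 gene called (Spop), called 4 with the replicate block, 0 with genes detected as a covariate, 0 without heterozygote replicate 1 and homozygote replicate 1 together and 12 with DESeq2. Homozygotes against wild type, also with 1, called 0 with no filter, 0 with the covariate, 0 without that pair of libraries and 13 with DESeq2. Heterozygotes against wild type and homozygotes against heterozygotes, with 0 each, called 13 and 8 with DESeq2. Leaving out 1 library at a time, the slope called 0 to 3 genes (3 without wild type replicate 1, 0 without wild type replicate 2, 3 or 4 or homozygote replicate 1, 3 or 4) and homozygotes against wild type 0 to 0. The cause was not tested. The block changed no other count of calls. Over 12 pairs of libraries with the same replicate number, deviations correlated at -0.05 to 0.45. Of 12 libraries, 4 correlated best with their own number. How many would do so without pairing was not computed, so nothing is read from that count. The 3 pairs above 0.1 were all of number 1. They were wild type with heterozygote (0.106), wild type with homozygote (0.114) and heterozygote with homozygote (0.454). Whether libraries of number 1 share a batch was not tested.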
